A study of Rattus norvegicus with 421 samples.

Results

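Ccnd1 encodes cyclin D1, and the gene was followed in the livers of male Wistar rats given 1 of 30 compounds or a vehicle by gavage. It is 1 of 10411 genes named on the Affymetrix RAE230A array and was read by 3 of its 15866 probe sets, all those that the platform's annotation assigned to Ccnd1 alone. The series held 421 arrays, 1 per animal, with 293 arrays in 98 treated groups and 128 in 38 vehicle groups. The strain was Wistar Hanover, Crl:WI[Gl/BRL/Han]IGS BR, and the rats were 8 to 10 weeks old when assigned to a dose group. Of 5 rats in a treatment group 3 were chosen on histopathology for the arrays, so the spread between animals is that of chosen animals. Each treated group was compared with the vehicle group that its labels name, which received carboxymethylcellulose (CMC, 86 arrays), corn oil (30 arrays) or saline (12 arrays). The compounds of the main question were cyproterone acetate (CPA, 100 mg/kg, against corn oil, 1, 3, 7 and 14 days), Wy-14643 (Wy, 60 mg/kg, against CMC, 1 and 3 days) and acetaminophen (Aap, 4250 mg/kg, against saline, 6, 12, 24 and 48 hours).

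Cyclin D1 joins the kinases CDK4 and CDK6, and the complex phosphorylates the retinoblastoma protein. E2F transcription factors are then released, and genes of DNA synthesis are transcribed. In the adult liver most hepatocytes rest outside the cell cycle. Cyclin D1 is known there as the step at which a growth stimulus commits a hepatocyte to a round of division, both after loss of tissue and after direct mitogens, which make the liver grow without prior damage. CPA acts on the pregnane X receptor (PXR) and Wy on the peroxisome proliferator-activated receptor alpha (PPARA), and both are known as direct mitogens of rat liver. Acetaminophen at a toxic dose kills hepatocytes around the central vein, and the survivors then divide.

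Changes are log2 values of treated minus vehicle, with the standard error (SE) of a limma fit over all arrays. Calls required a change of at least 1.5-fold and an adjusted p below 0.05, by the Benjamini-Hochberg method over the whole array. Where not stated otherwise there were 3 treated and 3 vehicle animals. The probe set with the highest mean, the main probe set, stood for the gene, and its values ran from 8.13 to 11.63 over all arrays. The other probe sets, called the second and the third in order of their means, had a correlation of their 98 changes with those of the main probe set of 0.97 and 0.95. These are descriptions over groups that share vehicle arrays. In the plot of the other probe sets against the main one, the fitted slope was 0.56 for the second and 1.13 for the third. In whole liver RNA, more cells that express a gene and more RNA per cell cannot be told apart. The 9 measured hepatocyte markers had a mean log2 value between 13.30 and 13.86 on every array.

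**Figure D1:**
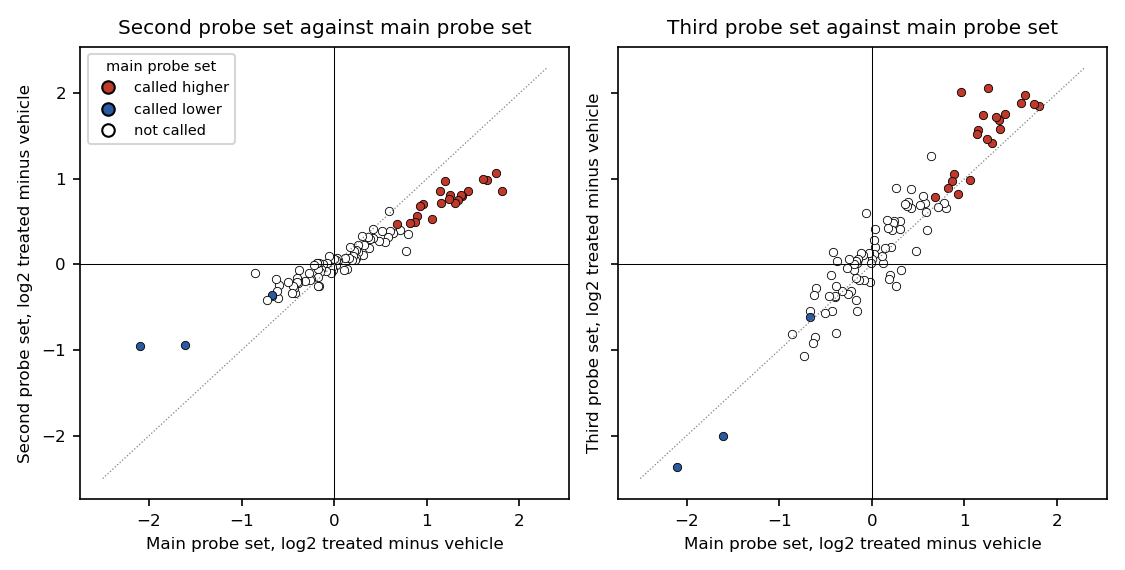
Change of Ccnd1 (log2 treated minus vehicle) in 98 treated groups by the second and the third probe set, each on the vertical axis, against that by the main probe set on the horizontal axis. Points are treated groups, red and blue where the main probe set was called higher or lower, and the dotted line marks equal change; the points of the second probe set lie on a flatter line (slope 0.56) and those of the third near the dotted line (slope 1.13).

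Ccnd1 was higher in 21 of the 98 treated groups, which came from 13 compounds, and lower in 3. Over all probe sets and groups 1.02% of the comparisons were called higher and 0.731% lower, against 21.4% and 3.06% for Ccnd1. At an unadjusted p below 0.05 there were 30 groups higher and 10 lower. All 3 probe sets were called higher in 16 groups and lower in 2. In 20 of the 21 groups no treated animal overlapped a vehicle animal. Over all 98 groups, called or not, the animals did not overlap in 29 with a rise and in 14 with a fall. The share of all probe sets without overlap was not computed, so this count has no background beside it. Compounds with a rise included 3 of the 4 nitrosamines, several mitogens and acetaminophen. The 38 vehicle groups also differed among themselves, with means of 8.59 to 10.49 (moderated F test in limma, adjusted p = 4.3e-10, passed by 48% of all probe sets). The vehicle arrays had a median of 9.03 and a lowest value of 8.30, the highest outside the saline groups of 6 and 12 hours was 9.91, and 58 of the 293 treated arrays lay above that. The lowest called values were those of acetaminophen at 6 and 12 hours, and the third was dehydroepiandrosterone (DHEA) at 14 days.

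**Figure D2:**
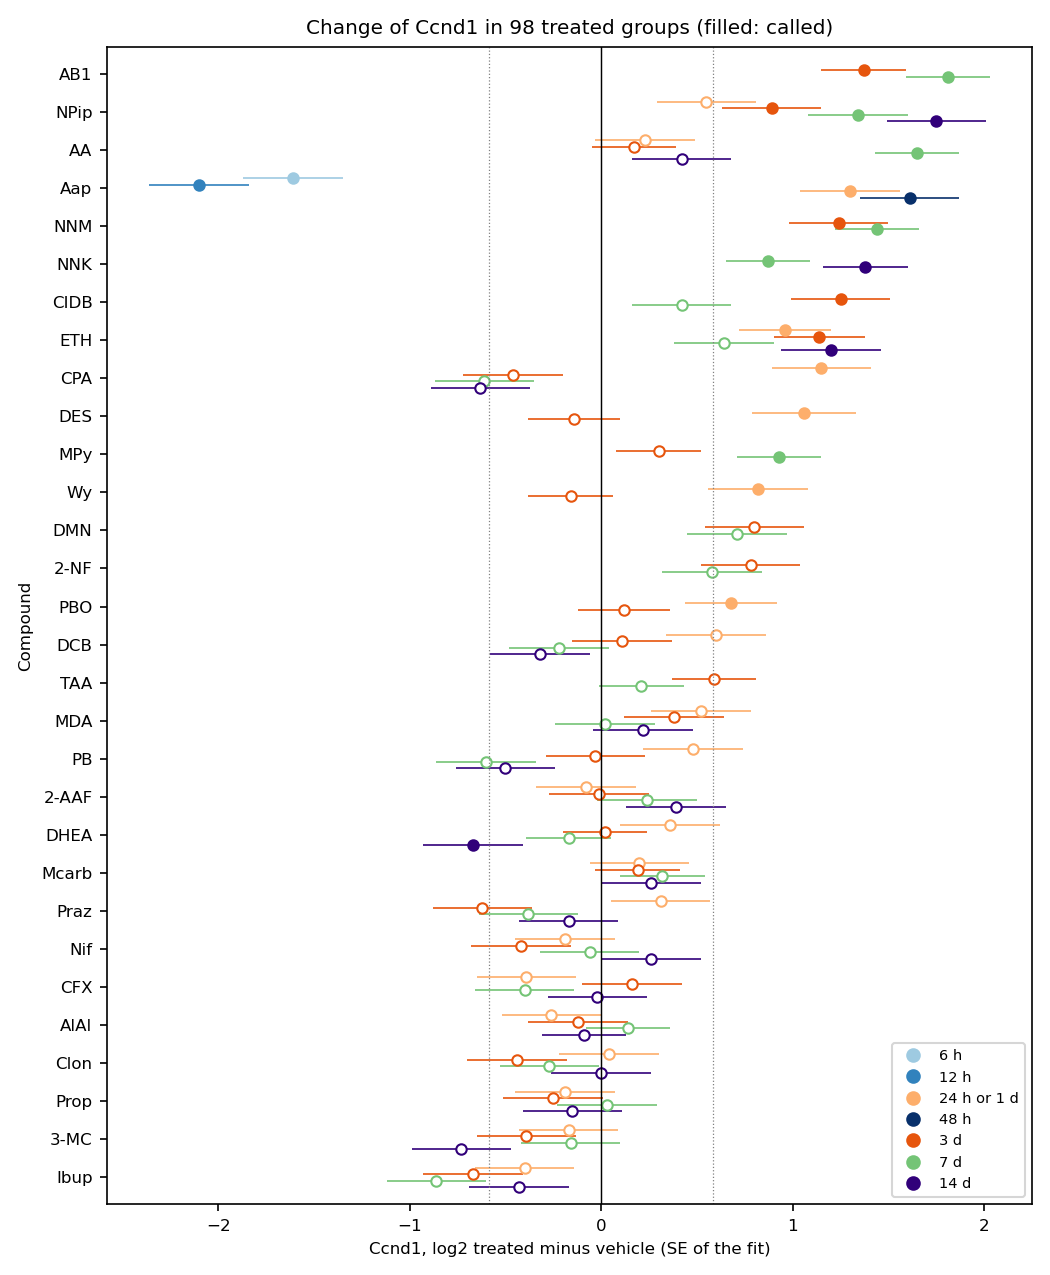
Change of Ccnd1 (log2 treated minus vehicle, horizontal axis, with the SE of the fit as bars) in 98 treated groups, 1 row per compound ordered by its highest change, with colour for the time and filled points for called groups. The dotted lines mark 1.5-fold; the 21 groups called higher lie between 0.68 and 1.81, and acetaminophen holds both the 2 lowest values, -1.61 and -2.10, and values of 1.30 and 1.61.

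CPA raised Ccnd1 after 1 day and not later. The values in the livers of CPA-treated rats at day 1 were 9.92, 9.91 and 9.93, against 8.98, 8.43 and 8.89 in corn oil. Every treated animal lay above every vehicle animal, and the treated animals differed from each other by less than the vehicle animals. The change was 1.15 ± 0.26, or 2.22-fold (adjusted p = 2.4e-04), where 1.99% of all probe sets were called higher. At day 3 the treated values were 8.24, 8.60 and 8.19, against 9.04, 8.71 and 8.67. The change was then -0.46 ± 0.26 (adjusted p = 0.28), at day 7 it was -0.61 ± 0.26 (adjusted p = 0.163) and at day 14 it was -0.63 ± 0.26 (adjusted p = 0.103). None of these passed, although all treated animals lay below all vehicle animals at each of the 3 times. At day 14 the third probe set was called lower, at -0.92 ± 0.32 (adjusted p = 0.0472), and the second was not, at -0.17 ± 0.17 (adjusted p = 0.598). The change itself moved with the time on CPA: day 14 minus day 1 was -1.78 ± 0.36 (adjusted p = 4.8e-04), in a contrast where 1.37% of all probe sets were called.

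Wy raised Ccnd1 after 1 day as well. The treated values were 9.98, 10.04 and 9.34 and the CMC values 8.97, 8.90 and 9.02, with no overlap. The change was 0.82 ± 0.26, or 1.77-fold (adjusted p = 0.0133), and 2.42% of all probe sets were called higher. The third animal, the lowest of the treated 3, carried transcripts of pancreas, with a mean of the 9 measured pancreas genes of 9.96, 3.18 above the median array. Without the arrays of this kind the change was 1.05 ± 0.28 (adjusted p = 0.00388). Leaving out the first or the second Wy animal ended it (adjusted p = 0.0837 and 0.0928), and the second probe set fell short of the fold limit at 0.48 ± 0.17 (adjusted p = 0.0405). At day 3 the treated values were 8.30, 9.10 and 9.20, which lay below, within and just above the 6 vehicle animals at 8.90 to 9.17, and the change was -0.16 ± 0.22 (adjusted p = 0.647). Day 3 minus day 1 was -0.99 ± 0.34 (adjusted p = 0.099), which did not pass.

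**Figure D3:**
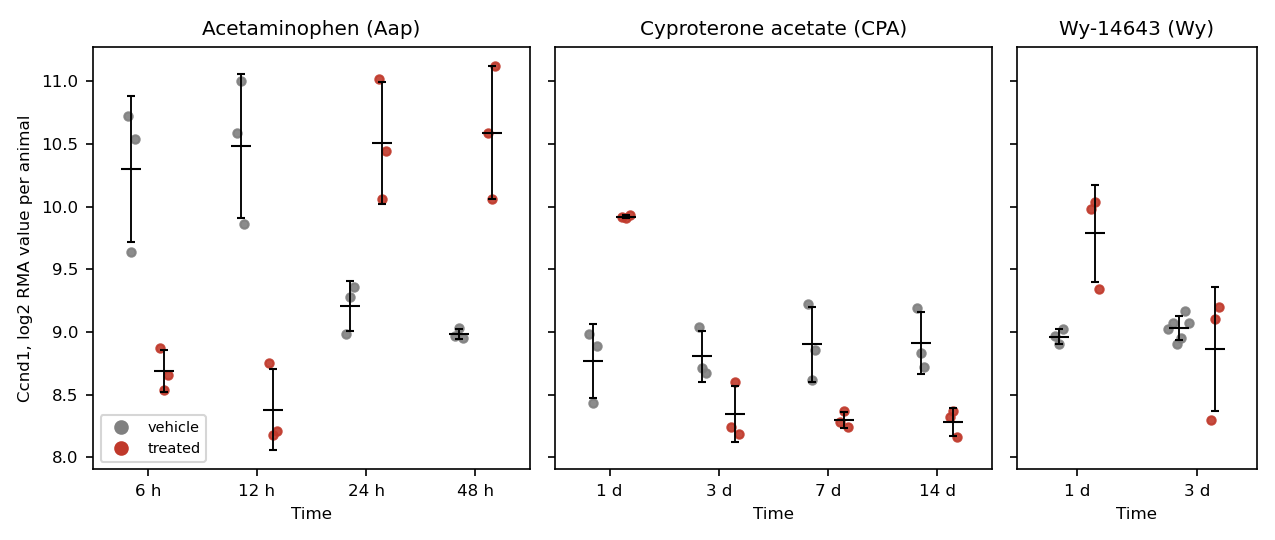
Level of Ccnd1 (log2 RMA value, vertical axis) in each animal by time after the start of treatment, for acetaminophen, CPA and Wy, treated in red and the vehicle group of the same time in grey, with mean and SD as bars. The CPA animals of day 1 lie at 9.91 to 9.93 above corn oil; in the acetaminophen panel the treated animals are low at 6 and 12 hours and high at 24 and 48 hours, while the saline animals run the other way.

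Of the other compounds known as liver mitogens, piperonyl-butoxide (PBO, 1200 mg/kg, CMC) was called higher at day 1. Its values were 9.77, 9.44 and 9.68, against 9.04, 8.82, 9.01 and 8.93 in the 4 vehicle animals. The change was 0.68 ± 0.24 (adjusted p = 0.0218), where 4.48% of all probe sets were called higher, and leaving out 1 of 3 single arrays ended the call (adjusted p of 0.0619 to 0.1), as did the second probe set at 0.47 ± 0.16, under the fold limit, and adjustment over all groups at once. Phenobarbital (PB, 80 mg/kg, CMC), an activator of the constitutive androstane receptor (CAR), had 9.39, 9.50 and 9.66 at day 1, all above its vehicle animals at 8.75, 9.31 and 9.04, with a change of 0.48 ± 0.26 (adjusted p = 0.901). 1,4-Dichlorobenzene (DCB, 300 mg/kg, corn oil) had 9.96, 9.32 and 8.84, with overlap and a change of 0.60 ± 0.26 (adjusted p = 0.613). DHEA (600 mg/kg, CMC), a peroxisome proliferator in rats, had 9.23, 9.62 and 9.11 at day 1 and a change of 0.36 ± 0.26 (adjusted p = 0.396). In all 6 mitogens the change at day 1 was above 0, with 3 of 6 called, and at day 3 it lay between -0.46 and 0.12 with none called. At day 7 the 4 mitogens still sampled lay between -0.61 and -0.17 and at day 14 between -0.67 and -0.32. For PB at day 7 the change of -0.60 ± 0.26 rested in part on a vehicle animal with muscle and pancreas transcripts, and without it was -0.41 ± 0.28 (adjusted p = 0.835). Among those, DHEA at day 14 was called lower, at -0.67 ± 0.26 (adjusted p = 0.0474), where 2.24% of all probe sets were called lower. One of its vehicle animals, at 8.72, lay within the treated values of 8.24, 8.82 and 8.81. The call was lost in a fit of the compared groups only, with pooled vehicle arrays and with adjustment over all groups at once. Neither of the other probe sets was called. The vehicle group had a mean of 9.30 (SD 0.51), against a median of 9.04 over the means of the vehicle groups.

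Acetaminophen went through a low and a high phase. At 6 hours the treated values were 8.87, 8.54 and 8.66 and the saline values 10.72, 9.64 and 10.54, a change of -1.61 ± 0.26 (adjusted p = 4.9e-08), with 2.51% of all probe sets called lower. At 12 hours they were 8.75, 8.18 and 8.21 against 10.59, 11.00 and 9.86, a change of -2.10 ± 0.26 (adjusted p = 6.1e-12), with 1.12% called lower. No treated animal reached the lowest saline animal at either time. The third treated animal of 6 hours carried transcripts of muscle, and without it the change was -1.60 ± 0.28 (adjusted p = 1.8e-06). At 24 hours the order was turned. The treated values were 11.02, 10.06 and 10.44 against 8.98, 9.28 and 9.36 in saline, a change of 1.30 ± 0.26 (adjusted p = 6.7e-06), where 6.72% of all probe sets were called higher. At 48 hours they were 10.59, 10.06 and 11.12 against 8.97, 9.03 and 8.95, a change of 1.61 ± 0.26 (adjusted p = 2.1e-08), where 6.01% were called higher. These 4 calls were made by all 3 probe sets. The change at 48 hours minus that at 6 hours was 3.22 ± 0.36 (adjusted p = 1.2e-14), in a contrast where 12.4% of all probe sets were called.

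The saline livers took part in this turn. Their mean of Ccnd1 was 10.30 ± 0.57 at 6 hours and 10.49 ± 0.58 at 12 hours (SD, n = 3 each), the 2 highest of the 38 vehicle groups, whose median was 9.04. The saline groups of 6 and 12 hours lay 1.30 ± 0.18 above those of 24 and 48 hours, or 2.46-fold (adjusted p = 1.6e-09), in a contrast where 0.523% of all probe sets were called higher. The livers of acetaminophen rats on their own lay 2.01 ± 0.18 higher at 24 and 48 hours than at 6 and 12 hours (adjusted p = 2.0e-22), where 4.85% were called higher. These contrasts, those that follow and the clock genes were chosen after the values were seen. Against the mean of the 4 saline groups, the change was -1.06 ± 0.20 at 6 hours, -1.36 ± 0.20 at 12 hours, 0.76 ± 0.20 at 24 hours and 0.85 ± 0.20 at 48 hours, and each was called. By the second probe set the changes at 6 and 24 hours, -0.58 ± 0.14 and 0.43 ± 0.14, were under the limit of 1.5-fold, and those at 12 and 48 hours were called. The saline groups also differed in clock genes, of which 5 were read, given here as means of 3 animals. Nr1d1, a repressor of the clock, was at 8.43 and 8.25 at 6 and 12 hours and at 5.73 and 5.74 at 24 and 48 hours in saline livers. Dbp, an output of the clock, was at 8.14 and 9.65 and then at 6.34 and 6.48, and Bmal1, its activator, at 7.39 and 6.53 and then at 8.25 and 8.24. The repressors Per2 and Per1 did not split the hours in this way: Per2 was at 7.94, 9.26, 8.00 and 8.23 and Per1 at 8.78, 9.23, 8.49 and 8.63 in order of time. In acetaminophen livers at 6 and 12 hours Nr1d1 was at 8.49 and 8.37 and Dbp at 7.25 and 9.91. Bmal1 was at 7.99 and 6.75 there, Per2 at 6.75 and 8.31 and Per1 at 9.07 and 9.05, so that some clock genes lay near saline and others apart from it. The part of the time of day in the level of Ccnd1 was not tested.

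The mitogens were set against acetaminophen at the time both share, 1 day and 24 hours. The change with CPA minus that with acetaminophen was -0.15 ± 0.36, with a 95% interval of -0.86 to 0.56 (adjusted p = 0.841), and for Wy it was -0.48 ± 0.36, with an interval of -1.19 to 0.24 (adjusted p = 0.395). A difference was not detectable for either at 3 animals a group, and the intervals reach past 1.5-fold. For PBO the difference was -0.62 ± 0.35 (adjusted p = 0.248), for DCB -0.69 ± 0.36 (adjusted p = 0.178) and for PB -0.82 ± 0.36 (adjusted p = 0.112). Only DHEA passed, 1 of 6 compounds, at -0.94 ± 0.36 (adjusted p = 0.0452), where 10.7% of all probe sets were called. With single arrays left out its adjusted p reached 0.242, and the other probe sets did not pass, at -0.41 ± 0.25 (adjusted p = 0.251) and -0.70 ± 0.45 (adjusted p = 0.284). For PB the third probe set alone passed, at -1.26 ± 0.45 (adjusted p = 0.0368). At later times no hour of acetaminophen matched: the change with acetaminophen at 48 hours was 1.61, and with CPA and Wy at day 3 it was -0.46 and -0.16. The courses of the mitogens ran downward: the last minus the first change was below 0 for all 6, namely CPA at -1.78 ± 0.36, DHEA at -1.03 ± 0.36, Wy at -0.99 ± 0.34, PB at -0.98 ± 0.36, DCB at -0.92 ± 0.36 and PBO at -0.56 ± 0.34. Only that of CPA passed, and of 30 compounds CPA and acetaminophen were the 2 that did. CPA and DCB shared their vehicle groups, and Wy and DHEA that of day 1, so the 6 courses were not independent. Compounds outside this set went both ways. Examples are diethyl-stilbestrol at -1.20 ± 0.36, C.I Direct Black at -0.83 ± 0.36 and N-nitrosopiperidine at 1.19 ± 0.36.

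Of the other compounds that injure the liver, allyl alcohol (AlAl, 36 mg/kg), which kills hepatocytes around the portal vein, gave changes between -0.26 and 0.14 over its 4 times, none called. Thioacetamid (TAA, 19.2 mg/kg) gave 10.05, 9.48 and 9.33 at day 3, all above its 6 vehicle animals at 8.90 to 9.17. This change was 0.59 ± 0.22 (adjusted p = 0.0502) and just missed the threshold by the main probe set, while the second probe set was called higher at 0.63 ± 0.15 (adjusted p = 7.7e-04). At day 7 thioacetamid gave 0.21 ± 0.22 (adjusted p = 0.563).

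The 3 highest changes of the main probe set came from carcinogens at day 7 and day 14. Aflatoxin B1 (AB1, 0.24 mg/kg), which forms DNA adducts, had 11.22, 9.73 and 11.63 at day 7 against 8.81 to 9.29 in 6 vehicle animals. This was the highest change of the main probe set, 1.81 ± 0.22 (adjusted p = 1.3e-12), where 2.45% of all probe sets were called higher, and it held the highest array of all. By the second probe set NPip at day 14 was highest, at 1.07 ± 0.17, and by the third CIDB at day 3 and ethionine at day 1, at 2.06 ± 0.32 and 2.02 ± 0.30, with aflatoxin B1 at day 7 at 0.86 ± 0.15 and 1.85 ± 0.28. Its 3 animals differed by an SD of 1.00, above the residual SD of 0.31 on which the SE rests. At day 3 they were closer, at 10.83, 9.98 and 10.39, and the change was 1.37 ± 0.22 (adjusted p = 2.5e-07), with 1.30% of all probe sets called higher.

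N-Nitrosopiperidine (NPip, 20 mg/kg) was sampled at 4 times, and its change was 0.55 ± 0.26 at day 1 (adjusted p = 1), 0.89 ± 0.26 at day 3, 1.34 ± 0.26 at day 7 and 1.75 ± 0.26 at day 14. At day 14 the animals had 11.25, 10.64 and 10.67 against 9.03, 9.35 and 8.95 (adjusted p = 3.7e-08), where 0.668% of all probe sets were called higher. At day 3 they had 10.82, 10.45 and 9.47, and the lowest lay within the vehicle values of 9.11, 9.56 and 9.41. That call, with an adjusted p of 0.0499 where 0.296% of all probe sets were called higher, was lost in both other probe sets and in the fit of the compared groups. At day 7 (adjusted p = 3.4e-05, with 1.43% called higher) the third animal, the highest at 10.68, carried transcripts of muscle, and without it the change was 1.12 ± 0.28 (adjusted p = 0.0168). Day 14 minus day 1 was 1.19 ± 0.36 (adjusted p = 0.239), so the order of the 4 times was not tested beyond this. N-Nitrososmorpholine (NNM, 3.5 mg/kg) had 10.50, 10.72 and 9.60 at day 3 against 8.86, 9.50 and 8.75, and gave 1.24 ± 0.26 at day 3 (adjusted p = 6.0e-04, with 0.403% of all probe sets called higher) and 1.44 ± 0.22 at day 7 (adjusted p = 1.0e-07, with 0.851%). The call at day 3 was lost in the fit of the compared groups. The tobacco nitrosamine 4-(methylnitrosamino)-1-(3-pyridyl)-1-butanone (NNK, 20 mg/kg) gave 0.87 ± 0.22 at day 7 (adjusted p = 0.0144, with 0.252%), and the second probe set was under the fold limit at 0.50 ± 0.15. At day 14 its animals had 10.58, 10.65 and 10.48 against 8.95 to 9.38 in 6 vehicle animals, a change of 1.38 ± 0.22 (adjusted p = 4.1e-07, with 0.813%). The first of these carried transcripts of pancreas and was no higher than the second. In the called nitrosamine groups 0.252% to 1.43% of all probe sets were called higher. By the main probe set Ccnd1 was among the 53 highest changes of 15866 in each of them. By the second probe set its place went down to 181, with NPip at day 7, and by the third to 28, in the same group. Dimethylnitrosamine (DMN, 4 mg/kg, corn oil) lay above its vehicle animals at both times but was not called in the main model. Its change was 0.80 ± 0.26 at day 3 (adjusted p = 0.187) and 0.71 ± 0.26 at day 7 (adjusted p = 0.0911). With pooled vehicle arrays both times were called higher. Day 3 was also called with adjustment over all groups at once, and day 7 in the fit of the compared groups.

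Acetamide (AA, 3000 mg/kg) was called at 1 of its 4 times. At day 7 its animals had 9.70, 11.00 and 11.38 against 8.81 to 9.29, a change of 1.65 ± 0.22 (adjusted p = 1.1e-10, with 3.52% of all probe sets called higher), and at days 1, 3 and 14 the changes were 0.23, 0.17 and 0.42. Ethionine (ETH, 200 mg/kg), an antagonist of methionine, was called at 3 of 4 times by the main probe set. At day 3 its animals had 9.98, 10.33 and 10.21 against 9.25, 9.03, 8.80 and 9.04. Its changes were 0.96 ± 0.24 at day 1 (adjusted p = 5.4e-04, with 4.57% called higher), 1.14 ± 0.24 at day 3 (adjusted p = 1.8e-05, with 7.91%), 0.64 ± 0.26 at day 7 (adjusted p = 0.0683) and 1.20 ± 0.26 at day 14 (adjusted p = 5.0e-05, with 4.29%). At day 7 one vehicle animal, at 9.81, lay within the treated values of 10.28, 10.06 and 9.53. The third probe set was called higher there, at 1.27 ± 0.32 (adjusted p = 0.00128), and the second was not, at 0.37 ± 0.17 (adjusted p = 0.132). C.I Direct Black (CIDB, 146 mg/kg, corn oil) had 10.30, 10.01 and 9.97 at day 3 against 8.99, 8.53 and 9.01, and gave 1.25 ± 0.26 at day 3 (adjusted p = 1.2e-04, with 1.02%) and 0.42 ± 0.26 at day 7 (adjusted p = 0.296). For CIDB at day 7 the third probe set was called higher, at 0.88 ± 0.32 (adjusted p = 0.0423), and the second was not, at 0.41 ± 0.17 (adjusted p = 0.091). Methapyrilene HCl (MPy, 60 mg/kg) gave 0.30 ± 0.22 at day 3 (adjusted p = 0.382) and 0.93 ± 0.22 at day 7 (adjusted p = 8.4e-04, with 1.79%). Diethyl-stilbestrol (DES, 10 mg/kg), a synthetic oestrogen, had 9.86 and 10.16 in the 2 animals of day 1, a change of 1.06 ± 0.27 (adjusted p = 0.00231, with 2.33%), and the second probe set was under the fold limit at 0.53 ± 0.18. At day 3 it had 8.79, 9.10 and 8.79 and a change of -0.14 ± 0.24, and day 3 minus day 1 was -1.20 ± 0.36 (adjusted p = 0.0565).

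The remaining compounds were compared with CMC unless corn oil is named. They were 2-acetylaminofluorene (1.2 mg/kg), 2-nitrofluorene (44 mg/kg, corn oil), 3-methylcholanthrene (25 mg/kg, corn oil), methylendianiline (50 mg/kg, corn oil) and methylcarbamate (400 mg/kg). Also among them were nifedipine (3 mg/kg), cefuroxime (250 mg/kg), ibuprofen (94 mg/kg), clonidine (0.1 mg/kg), prazosin (1 mg/kg) and propranolol (40 mg/kg). None of their groups, at days 3 and 7 for 2-nitrofluorene and days 1, 3, 7 and 14 for the rest, was called by the main probe set. The lowest of these were ibuprofen at day 7, with 8.48, 8.13 and 8.39 against 8.95, 8.72 and 9.91 (change -0.86 ± 0.26, adjusted p = 0.133), and 3-methylcholanthrene at day 14, with 8.43, 8.24 and 8.14 against 8.92, 9.06 and 9.03 (change -0.73 ± 0.26, adjusted p = 0.0809). In both the treated animals lay below every vehicle animal. 3-Methylcholanthrene at day 14 was called lower by the third probe set (-1.07 ± 0.32, adjusted p = 0.0248), in the fit of the compared groups and with pooled vehicle arrays. Ibuprofen at day 7 was called lower with pooled vehicle arrays and with adjustment over all groups at once. 2-Nitrofluorene was called higher with pooled vehicle arrays at both days. At day 3 it was also called without probe sets under a mean of 6 and with adjustment over all groups at once. When the 98 changes were put in order, 1 of 97 pairs of neighbours differed by more than 2 SE, namely ibuprofen at day 7 and acetaminophen at 6 hours (0.75 ± 0.36). Neighbours in so long an order lie close to each other, so this count does not say whether groups further apart differ.

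Genes of the partners of cyclin D1 were counted over the 98 groups. Over all probe sets and groups 1.02% of the comparisons were called higher and 0.731% lower. The counts among the 21 groups with Ccnd1 higher have no background beside them. Ccnd2 and Ccnd3, the other D-type cyclins, were called higher in 1 and 0 of the 98 groups, near the share of all comparisons. Ccnd2 rose by 0.60 with ethionine at day 1 and fell by 0.71 with acetaminophen at 6 hours, and the highest change of Ccnd3 was 0.46. Cdk4 and Cdk6, the kinases, were called in no group. Cdk4 reached 0.53 ± 0.10 with acetaminophen at 48 hours (adjusted p = 1.0e-06), 0.34 ± 0.10 with CPA at day 1 (adjusted p = 0.00543) and 0.38 ± 0.10 with Wy at day 1 (adjusted p = 0.00159), all under the limit of 1.5-fold. Of the substrates, Rb1 was lower in 13 groups, and 7 of these were among the 21 in which Ccnd1 was higher. It fell at all 4 hours of acetaminophen, by 0.80, 0.85, 1.27 and 1.12 in order of time. With CPA and Wy at day 1 it was at -0.26 ± 0.17 (adjusted p = 0.351) and -0.23 ± 0.17 (adjusted p = 0.431). Rbl2, a relative of Rb1, was lower in 3 groups, all among the 21. Tfdp1, the partner of E2F in binding DNA, was higher in 5 groups, again all among the 21. They included CPA at day 1 (0.70 ± 0.15) and acetaminophen at 24 hours (0.67 ± 0.15) and 48 hours (0.97 ± 0.15), and Wy at day 1 gave 0.22 ± 0.15 (adjusted p = 0.395). The E cyclins, which act after cyclin D, were called higher by Ccne2 in 3 groups and by Ccne1 in 1, and Cdc25a, a phosphatase that activates their kinase, in none. Ccne2 rose by 1.12 ± 0.12 with CPA at day 1 and 1.17 ± 0.12 with acetaminophen at 48 hours, and was at 0.34 ± 0.12 at 24 hours (adjusted p = 0.0144) and at 0.21 ± 0.12 with Wy (adjusted p = 0.242).

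**Figure D4:**
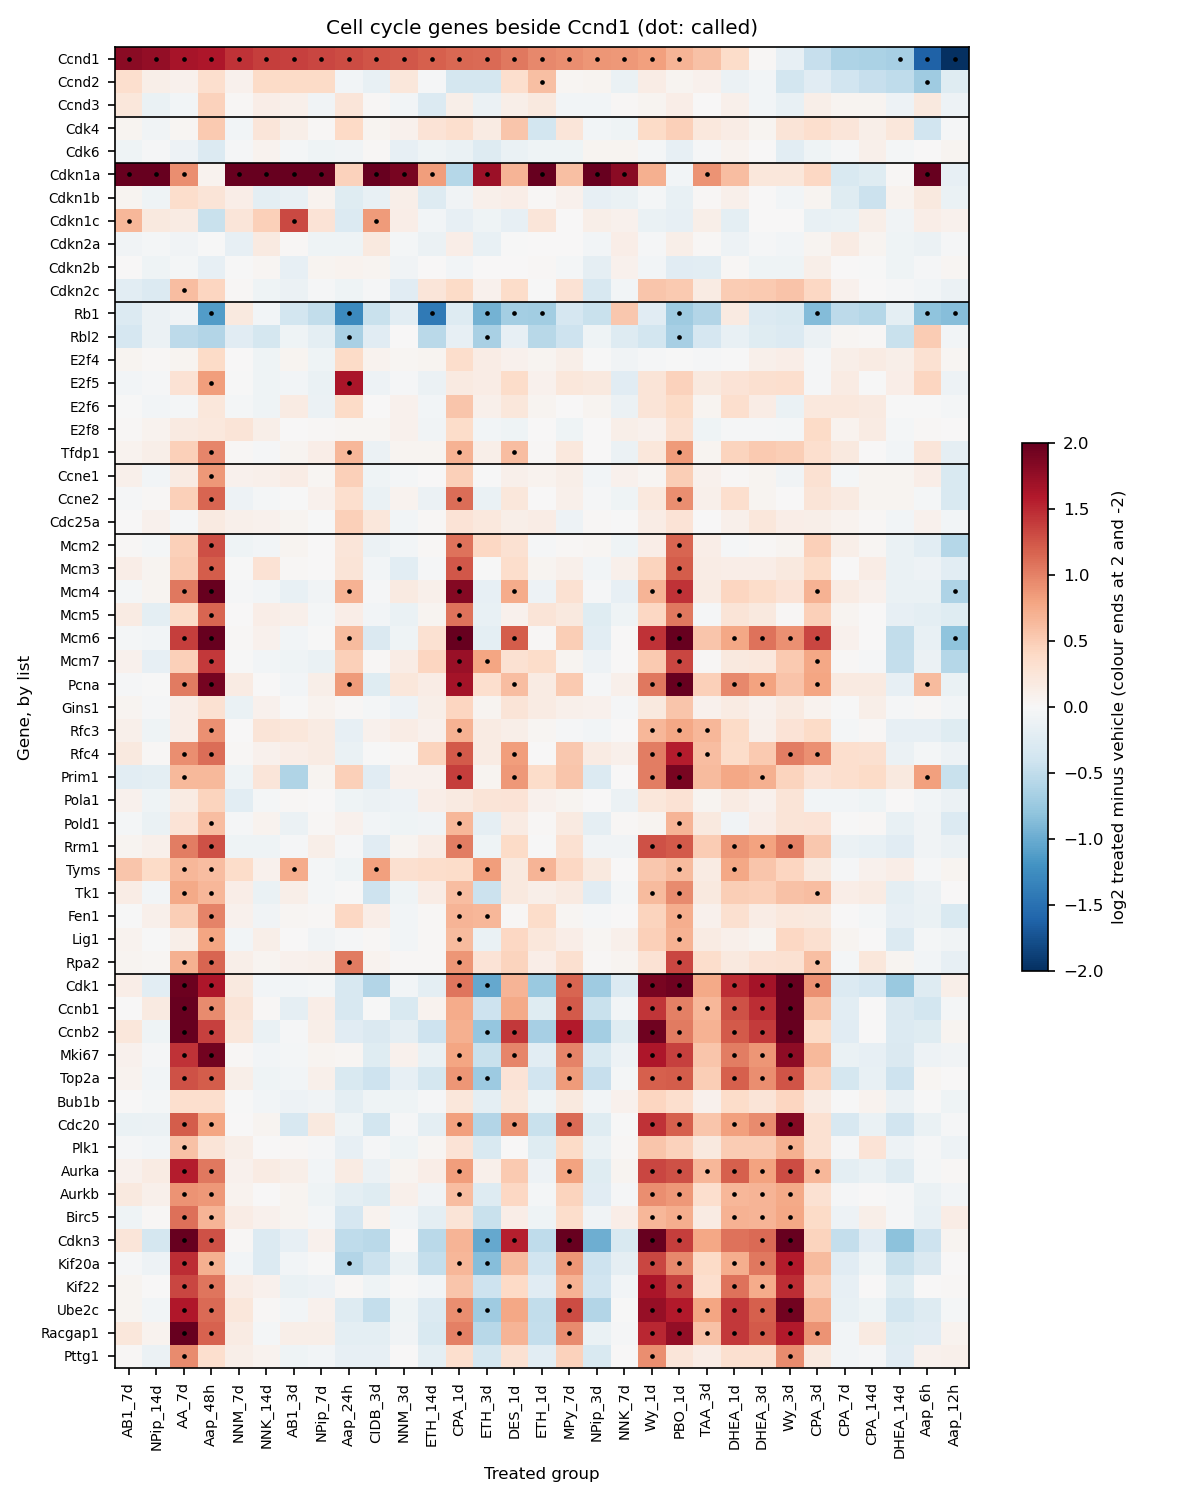
Change (log2 treated minus vehicle, colour, which ends at 2 and -2) of Ccnd1 and of the measured members of 7 cell cycle lists, 1 row per gene with lines between lists, in the 21 groups in which Ccnd1 was called higher (from left, in order of its change) and in 10 others for comparison. A dot marks a called gene. AB1, NPip, NNM and NNK columns are dark for Cdkn1a and nearly empty for replication and mitosis, near the share of all probe sets called. CPA_1d, PBO_1d and Aap_48h are filled.

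Genes of DNA synthesis and mitosis, many of them served by E2F, were counted beside Ccnd1, and no test was made of differences between compounds in these counts. With CPA at day 1, 16 of 19 measured DNA replication genes and 9 of 17 mitosis genes were higher, with medians of 1.02 and 0.71, against a median of 0.00 over all probe sets and 1.99% called higher. Mcm6, a part of the helicase that opens DNA for copying, rose by 2.61 ± 0.25, and Pcna, the clamp of the DNA polymerase, by 1.67 ± 0.16. With Wy at day 1, 8 of 19 and 15 of 17 were higher, with medians of 0.52 and 1.43, against a median of -0.01 over all probe sets and 2.42% called higher. Mcm6 rose by 1.45 ± 0.25 there and Cdk1, the kinase of mitosis, by 1.90 ± 0.33. At day 3 of Wy, where Ccnd1 was at -0.16, 16 of 17 mitosis genes were still higher, against 2.44% of all probe sets, with Ccnb1, a partner of Cdk1, at 2.08 ± 0.24. CPA at day 3, with Ccnd1 at -0.46, had 7 of 19 and 3 of 17 higher, against 1.12%, and at days 7 and 14 none was.

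Acetaminophen at 24 hours, with Ccnd1 at 1.30, had 4 of 19 replication genes higher and 0 of 17 mitosis genes, and 1 mitosis gene, Kif20a, was lower. Of all probe sets 6.72% were called higher there and 4.08% lower. At 48 hours, with Ccnd1 at 1.61, 16 of 19 and 14 of 17 were higher, against 6.01% of all probe sets. Mcm6 was at 0.63 ± 0.25 at 24 hours and at 2.77 ± 0.25 at 48 hours, and Cdk1 was at -0.32 ± 0.33 (adjusted p = 0.495) and at 1.62 ± 0.33. At 12 hours, where Ccnd1 was lowest, Mcm4 and Mcm6 fell by 0.61 and 0.81, and 1.12% of all probe sets were called lower.

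Of the 21 groups with Ccnd1 higher, 12 had at least 1 of these 36 genes higher and 7 had 5 or more, and of the 77 other groups 12 had at least 1 and 9 had 5 or more. Over all probe sets and groups 1.02% of the comparisons were called higher, with 0.252% to 7.91% in single groups among the 21. Over the 98 groups the change of Ccnd1 and the list medians had a correlation of 0.37 for replication and 0.23 for mitosis, a description over groups that share vehicle arrays (the plot of list medians against the change of Ccnd1).

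**Figure D5:**
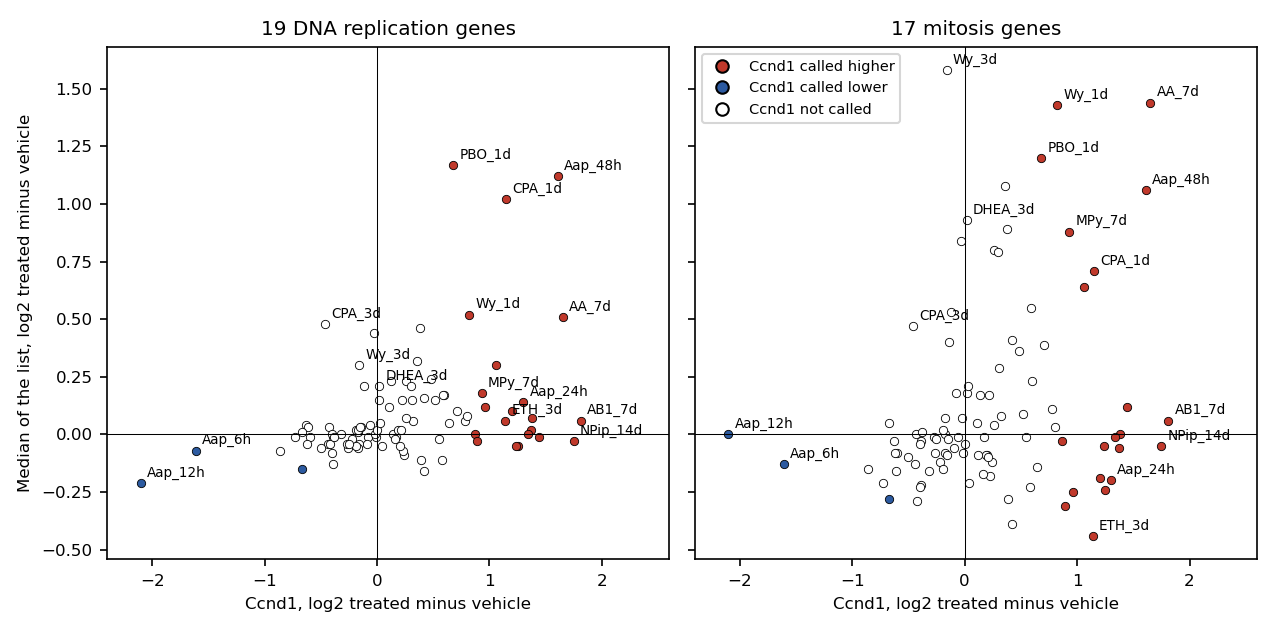
Median change (log2 treated minus vehicle, vertical axis) of 19 DNA replication genes and of 17 mitosis genes against the change of Ccnd1 (horizontal axis) in 98 treated groups, red and blue where Ccnd1 was called higher or lower. CPA_1d, PBO_1d and Aap_48h stand high on both axes of the replication panel, AB1_7d and NPip_14d lie at 0.06 and -0.03 with Ccnd1 at 1.81 and 1.75, and Wy_3d has a mitosis median of 1.58 with Ccnd1 at -0.16.

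Of the CDK inhibitors, Cdkn1a (p21), a target of p53 that binds cyclin-CDK complexes, moved most often. It was higher in 24 of the 98 groups, and in 14 of these Ccnd1 was higher too, which is 58.3% of the groups of Cdkn1a and 66.7% of those of Ccnd1. Such overlap was not particular to Cdkn1a. Atf3 shared 100% of its groups with Ccnd1, Myc 75%, Jun 71.4%, Egr1 70%, Mcm6 53.8%, Aldh1a1 39.2% and Ccnb1 38.5%. Of the groups of Ccnd1, Aldh1a1 was higher in 95.2% and the others in 23.8% to 33.3%. In the 14 groups shared with Ccnd1 the change of Cdkn1a ran from 0.84 to 3.19. They were all called groups of aflatoxin B1, the 3 nitrosamines, acetamide, ethionine and CIDB. Of the 36 replication and mitosis genes, 0 to 3 were higher in 13 of them, with 0 in 9, and 25 in the group of acetamide at day 7. Of all probe sets 0.252% to 7.91% were called higher in these 13 groups and 3.52% with acetamide. The counts of 0 to 3 of 36 in these 13 groups were near the share of all probe sets, also the 3 with ethionine at day 3, beside 7.91%. They are therefore no result about these genes. The 7 groups in which Ccnd1 was higher and Cdkn1a was not called were CPA, Wy, PBO and DES at day 1, acetaminophen at 24 and 48 hours and methapyrilene HCl at day 7. They had 4 to 31 of the 36 genes higher, with a median of 23, against 1.79% to 6.72% of all probe sets. The lowest count, 4, was that of acetaminophen at 24 hours, where 6.72% of all probe sets were called higher. Cdkn1a was at -0.57 ± 0.31 with CPA (adjusted p = 0.245), 0.71 ± 0.31 with Wy (adjusted p = 0.12) and 0.07 ± 0.31 with acetaminophen at 48 hours (adjusted p = 0.869). At 6 hours of acetaminophen, where Ccnd1 was lower, it rose by 2.01 ± 0.31. This division of the groups was made after the values were seen and carries no test. Cdkn1c (p57) was higher in 6 groups, 3 of them among the 21, with 1.32 in aflatoxin B1 at day 3. Cdkn2c was higher in 1 group, acetamide at day 7, and Cdkn1b, Cdkn2a and Cdkn2b in none.

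Genes that carry growth signals towards cyclin D1 were called in groups of several compounds. Of 19 measured, 8 were higher with acetaminophen at 24 hours and 5 at 48 hours, against 6.72% and 6.01% of all probe sets, with Egf lower at both times, against 4.08% and 4.03%. With CPA at day 1, 0 were higher, against 1.99%, and Egfr and Egf were lower. With Wy at day 1, 0 were higher, against 2.42%, and Egf was lower, as it was in 17 of the 98 groups. Atf3, a stress transcription factor, rose by 3.40 ± 0.21 and 1.53 ± 0.21 at 24 and 48 hours, and Egr1, an immediate early factor, by 1.88 ± 0.63 and 3.47 ± 0.63. Myc rose by 1.07 ± 0.43 and 1.43 ± 0.43 there. With CPA Myc was at 0.91 ± 0.43 (adjusted p = 0.163), and with Wy at -0.16 ± 0.43 (adjusted p = 0.882). Stat3, which carries the signal of interleukin 6, was higher at all 4 hours, including 6 and 12 hours when Ccnd1 was lower, at 1.32, 1.12, 0.93 and 0.62 in order of time. No test was made of the difference between compounds for these genes. In all 98 groups Atf3 was higher in 5, all among the 21, and Egr1 in 10, of which 7 were among the 21.

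Genes of cyclin D1 turnover were counted over the 98 groups. Over all probe sets and groups 1.02% of the comparisons were called higher and 0.731% lower. Fbxo31, a subunit that marks cyclin D1 for breakdown after DNA damage, was higher in 5 groups. It rose by 1.76 ± 0.12 with acetaminophen at 6 hours and 0.73 ± 0.12 at 24 hours. Cryab, a cofactor of another such ligase, was higher in 7 groups, 6 of them among the 21. Gsk3b, the kinase that marks cyclin D1 for export from the nucleus, and Fbxw8 were called in none. Cul1 and Skp1 were higher in 1 group each, near the share of all comparisons. Of 8 measured targets of beta-catenin in liver, which share its signal with Ccnd1, 0 were higher and 2 and 4 lower at 24 and 48 hours of acetaminophen, with Glul at -1.14 ± 0.18 and -1.26 ± 0.18 and Oat at -1.58 ± 0.33 and -3.31 ± 0.33. Of all probe sets 6.72% and 6.01% were called higher and 4.08% and 4.03% lower at these hours. The beta-catenin targets mark hepatocytes around the central vein. With CPA and Wy at day 1 none of them was called, where 1.99% and 2.42% of all probe sets were called higher and 1.99% and 1.69% lower.

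The targets of the receptors of CPA and Wy were called at each time sampled. With CPA at day 1, 8 of 9 measured CAR and PXR targets were higher, among them Ces2c at 3.26 ± 0.23, and at days 3, 7 and 14, when Ccnd1 was not raised, 9, 7 and 8 were, against 1.12%, 0.517% and 0.548% of all probe sets at these days and 1.99% at day 1. With Wy, 7 of 8 measured PPARA targets were higher at day 1 and 8 at day 3, against 2.42% and 2.44% of all probe sets, with Acot1 at 7.56 ± 0.31 and 7.57 at the 2 times. Ccnd1 was called higher at day 1 alone with both compounds.

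Markers of other liver cells moved in some of the same groups. With acetaminophen at 48 hours 4 of 11 measured macrophage markers were higher and 1 lower, and the mean of the 11 was 9.97 to 10.25, against 9.01 to 9.28 in saline, in a group with 6.01% of all probe sets higher and 4.03% lower. Of the bile duct markers 4 of 10 were higher there, with a mean of 7.63 to 8.34 against 7.47 to 7.55, and of the stellate and fibroblast markers 5 of 15 were higher and 1 lower, with 7.81 to 9.04 against 7.87 to 7.97. Acetamide at day 7 had 8 of 11 macrophage markers higher (3.52% of all probe sets), and ethionine at day 3 had 10 higher and 1 lower (7.91% and 4.98%). Ethionine at day 14 had 8 macrophage and 4 bile duct markers higher (4.29%), with means of 9.69 to 9.75 against 8.56 to 9.07 and of 7.98 to 8.29 against 7.57 to 7.67. Aflatoxin B1 at day 7 had 7 macrophage and 6 of 10 bile duct markers higher (2.45%), and the mean of its bile duct markers was 7.82 to 9.03 against 7.41 to 7.54. Of the nitrosamine groups, NNM at day 7 had 7 of 15 stellate and fibroblast markers higher (0.851%), with a mean of 8.34 to 8.40 against 7.72 to 7.87, and NPip at day 14 had 1 higher (0.668%), with 7.99 to 8.28 against 7.60 to 7.85. In both the treated and the vehicle animals did not overlap. DHEA at day 14, where Ccnd1 was lower, had 7 macrophage, 6 stellate and fibroblast and 2 of 7 endothelial markers lower (2.24%). The means there were 8.43 to 8.73 against 9.16 to 9.35, 7.36 to 7.58 against 7.92 to 7.97 and 7.65 to 7.89 against 8.14 to 8.31. With CPA at day 1 no macrophage marker was higher and 6 were lower, with a mean of 8.44 to 8.88 against 9.13 to 9.38, and with Wy at day 1 none was called. Endothelial markers were called in 0 of 7 at 48 hours of acetaminophen and with CPA and Wy at day 1. The part of these cells in the level of Ccnd1 was not tested.

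The genes whose changes over the 98 groups ran most like those of Ccnd1, 1 probe set per gene among 10411, were Tbcb (r = 0.71), Nup205 (0.71), Frmd8 (0.69), Glrx3 (0.69), Mdm2 (0.68), Fat1 (0.68), Itgb1 (0.68), Atp6v1d (0.67), Spcs1 (0.66) and Cd151 (0.66). Mdm2 encodes the ligase that degrades p53, and Itgb1 a subunit of the receptors for matrix. Those that ran most against it were Macrod1 (-0.69), Adk (-0.67), Cadm1 (-0.65), Cd14 (-0.65) and Echdc2 (-0.64). Cd14, the coreceptor for endotoxin, was lower in 20 groups, 12 of them among the 21. With acetaminophen at 12 hours, where Ccnd1 fell by 2.10, the changes of the 10 most alike ran from -0.40 to 0.32. These values describe the 98 groups, which share vehicle arrays.

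Across the compounds that the study put in a class a difference was not detectable. Aflatoxin B1, NPip, NNM and NNK, with changes of 1.81, 1.75, 1.44 and 1.38 at their last time, had no class there and were left out. The comparison therefore does not speak for them. At the last time the mean change was 0.56 ± 0.21 in 2 genotoxic and 0.20 ± 0.65 in 8 non-genotoxic carcinogens (SD over compounds). Their difference of 0.36 had a p of 0.511 in an exact two-sided permutation test, whose smallest possible p is 0.0222. The 10 classed carcinogens minus 2 non-carcinogens gave 0.15 (exact permutation p = 0.712, smallest possible 0.0152), and adjusted over both comparisons each p was 0.712. At day 3 of every compound the first difference was 0.80 (exact permutation p = 0.0444, adjusted 0.0889). In vehicle livers the level was 0.15 ± 0.09 higher at day 14 than at day 1 over 8 blocks, which did not pass (unadjusted p = 0.0937). Corn oil livers were 0.23 below those given CMC, 8.87 against 9.11 (SE 0.07, adjusted p = 0.0102), a difference under 1.5-fold in which vehicle and study block cannot be told apart.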

How the data were processed

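Liver RNA of 421 rats was measured on Affymetrix RAE230A arrays. The authors made the deposited log2 values by robust multi-chip averaging (RMA), with the version not given in the sources used here. Array medians lay between 7.38 and 7.49. For arrays there is no read depth, and 3 animals a group limit the precision. Probe sets were named from the platform's table, with symbols updated by gene identifier (12748 matched). Groups, doses, times and vehicle groups came from the labels. R 4.3.3 with limma 3.58.1 fitted 1 mean per group over all arrays (285 residual and 4.67 prior degrees of freedom), so that all groups share 1 estimate of the spread. Contrasts were treated minus own vehicle group, and differences of these, adjusted by Benjamini-Hochberg over 15866 probe sets within a contrast and called at an adjusted p below 0.05 and 1.5-fold. A gene with several probe sets was read by the one with the highest mean. The named genes were the Ccnd1 probe sets, members of lists of the cyclin D pathway, receptor targets and cell types, and the 10 genes most and 5 least correlated with Ccnd1. The gene, the lists and the sets of mitogens and injuring compounds were chosen with earlier results of these data known. In simulated data for CPA at day 1, with 15866 probe sets, 99 of 100 probe sets changed 2-fold and 100 of 100 changed 4-fold were recovered, and 1 unchanged probe set was called. Same-numbered arrays did not deviate together (mean correlation 0.0131), so the numbers were not used as pairs. The fit was repeated with quantile normalization, with a replicate block, without probe sets under a mean of 6, without single arrays, with pooled vehicle arrays, on each pair of groups alone, with the other probe sets and with 1 adjustment over all contrasts. Plots were made in matplotlib 3.10.9 under Python 3.11.15.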

Additional observations from a re-analysis of the deposited data

Results flagged for a closer look

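Differences between the effects of 2 compounds or of 2 times on Ccnd1 passed in 3 comparisons. The change with DHEA at day 1 minus that with acetaminophen at 24 hours was -0.94 ± 0.36 (adjusted p = 0.0452), with treated animals at 9.23 to 9.62 and at 10.06 to 11.02. The change with acetaminophen at 48 hours minus that at 6 hours was 3.22 ± 0.36 (adjusted p = 1.2e-14), and the saline groups of the 2 times differed as well, at 8.98 and 10.30. The change with CPA at day 14 minus that at day 1 was -1.78 ± 0.36 (adjusted p = 4.8e-04), with corn oil means of 8.91 and 8.77. No array stood apart in the 6 groups of 4 or 6 animals that were large enough to be examined for it.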

How the results depend on the processing

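The calls of CPA at day 1 and of acetaminophen at its 4 times held when 1 choice at a time was changed, also with the saline mean as the control of acetaminophen, which was chosen after seeing the data. With that control the second probe set was not called at 6 hours (-0.58) and 24 hours (0.43). CPA at later days was not called in the main model but passed at day 7 (-0.61) and day 14 (-0.63) in a fit of the compared groups only, and at day 14 with pooled vehicle arrays (-0.67) and by the third probe set (-0.92). The count of groups called lower, 3, became 5 in the fit of the compared groups and 7 with pooled vehicle arrays. Wy at day 1 was not called by the second probe set (0.48). DHEA minus acetaminophen was not called after quantile normalization (-0.91). The genotoxic minus non-genotoxic difference at day 3 was 0.80, with p under the threshold before adjustment. With 1 array left out, calls were recomputed for only 39 of the 98 groups. DHEA at day 14 and NPip at day 3, whose calls lay close to the threshold (adjusted p = 0.0474 and 0.0499), were not among them. The dependence of these calls on single arrays was therefore not tested, and the counts that follow hold them fixed. In 100 refits with 1 array left out, 19 to 23 groups were called higher and 3 to 3 lower. In these the change ranged from 0.98 to 1.26 for CPA at day 1, -0.59 to -0.35 at day 3, -0.74 to -0.45 at day 7 and -0.73 to -0.49 at day 14, from 0.70 to 1.05 for Wy at day 1 and -0.33 to 0.12 at day 3, and for acetaminophen from -1.94 to -1.40, -2.42 to -1.84, 1.04 to 1.52 and 1.34 to 1.88 in order of time. The difference from acetaminophen ranged from -0.37 to 0.11 for CPA, -0.70 to -0.22 for Wy, -1.04 to -0.56 for PB, -0.99 to -0.43 for DCB, -1.17 to -0.69 for DHEA and -0.84 to -0.36 for PBO. The call of DHEA was lost in 9 of 12 refits, and PB passed in 1, without the second acetaminophen animal of 24 hours. The difference between the last and the first time ranged from -1.89 to -1.61 for CPA, -1.21 to -0.70 for Wy and 2.95 to 3.55 for acetaminophen. With each compound left out the class differences ranged from 0.21 to 0.51 and from 0.01 to 0.30. With the replicate block no call of the 98 groups changed, and the change of CPA at day 1 was 1.15. The causes of these shifts were not tested.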
